A study of Mus musculus with 8 samples.

Results

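Thyroid hormone acts on muscle through nuclear receptors, and 10 genes that carry its signal were followed in C2C12 mouse muscle cells with and without a knockdown of DOR. They are the receptors Thra and Thrb, their partners Rxra and Rxrb, the transporter Slc16a10, the deiodinase Dio2 and the target genes Klf9, Hr, Me1 and Thrsp. All probe sets annotated with one of these symbols and no other were taken, which gave 29 probe sets of 10 genes among 45037 probe sets and 18193 genes named on the array. The genes were chosen for their roles, since DOR, the product of Trp53inp2, is known as a cofactor of the thyroid hormone receptor. Earlier results of these data were known when they were chosen.

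The study compared 4 C2C12 cultures that carried a lentivirus with siRNA against DOR with 4 that carried a lentivirus with scrambled RNA. Every culture received virus at an moi of 100, was expanded over 5 to 7 days, was sorted to 93 to 99% GFP-positive cells and then spent 4 days in 5% horse serum, per the labels' protocols. C2C12 is an established mouse myoblast line that fuses into myotubes when serum is reduced, and other labels call the cells confluent myoblasts. The labels name no addition or removal of thyroid hormone and do not say how many siRNA sequences were used or how the replicate cultures were derived, so p-values measure the spread between these cultures of 1 line. Expression was read on 1-colour Affymetrix arrays, 1 per culture, as log2 values per probe set, and a difference of 1 is a doubling of the measured signal. In bulk RNA, fewer cells of a kind and less RNA per cell cannot be told apart.

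In cells, the hormone enters through membrane transporters, and a deiodinase converts thyroxine to the active triiodothyronine. The receptors sit on DNA mostly as dimers with a retinoid X receptor, hold corepressors when empty and recruit coactivators when the hormone binds. In skeletal muscle the alpha receptor is the main form, and the hormone is known there for raising calcium pump, fast myosin and metabolic genes.

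The promoters of Klf9 and Me1 are shown because they belong to the members with a passed difference for which the RefSeq table (build GRCm38.p6) held an entry. They run from 250 bases before to 50 bases after the annotated start. Capitals mark the GC box GGGCGG on either strand, a motif to which Krüppel-like factors such as Klf9 bind. The core receptor motif AGGTCA, searched on both strands, would also be in capitals but has no exact copy in these windows. Only these exact letters were searched, so the windows may hold receptor sites that depart from them.
Klf9 promoter (chr19:23140976-23141275, plus strand): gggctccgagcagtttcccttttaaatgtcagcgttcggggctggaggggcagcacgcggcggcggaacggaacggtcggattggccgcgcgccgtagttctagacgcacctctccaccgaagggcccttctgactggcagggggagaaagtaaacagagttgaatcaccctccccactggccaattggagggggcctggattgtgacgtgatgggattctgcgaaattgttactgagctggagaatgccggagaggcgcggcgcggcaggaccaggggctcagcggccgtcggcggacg
Me1 promoter (chr9:86695865-86696164, minus strand): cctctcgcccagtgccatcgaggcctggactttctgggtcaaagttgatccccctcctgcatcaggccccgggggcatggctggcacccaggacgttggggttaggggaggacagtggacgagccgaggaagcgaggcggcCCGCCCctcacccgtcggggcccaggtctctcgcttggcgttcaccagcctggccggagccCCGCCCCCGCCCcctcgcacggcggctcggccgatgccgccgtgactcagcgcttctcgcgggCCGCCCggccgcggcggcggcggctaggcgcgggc
The Me1 window shown held 4 GC boxes, of which 2 lie end to end, and the Klf9 window held 0. The table gives Me1 another start, whose window (chr9:86687228-86687527, minus strand) is not shown and held 0 GC boxes. Of 32817 promoters of the same length, 35.6% held at least 1 GC box and 16.3% the core receptor motif. The table held 12 windows of 8 members, and 2 of these windows, 1 each of Rxra and Thrb, held AGGTCA. An exact direct repeat of AGGTCA with a spacer of 4 bases was in 0 of the 12 windows and in 0.0152% of all promoters. Imperfect repeats and sequence outside these windows were not searched, so these counts do not show that receptor sites are absent.

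The target transcript was reduced in all 4 knockdown cultures. The brighter probe set of Trp53inp2 read 11.50, 11.55, 11.43 and 10.92 in the scrambled cultures 1 to 4 and 9.46, 9.93, 9.49 and 9.18 in the DOR siRNA cultures. The mean difference was -1.83 ± 0.17 log2 units (standard error of the model, limma adjusted p = 0.00087). The dimmer probe set of the gene differed by 0.14 ± 0.08 (limma adjusted p = 0.519).

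Me1 rose, and it was the member past the threshold in the fit of group alone. Klf9 was lower and Hr higher by their brightest probe sets, and these passed the threshold when cultures with the same replicate number were treated as pairs, but not in the fit of group alone. Receptors, retinoid partners, transporter, deiodinase and Thrsp held no probe set past the threshold in either fit. In the group fit 1 of the 29 probe sets was called (limma, Benjamini-Hochberg adjusted p under 0.05 over all 45037), beside 3.22% of all probe sets, so the members' share was near that of the array. That 1 was higher and 0 were lower, beside 2.04% of all probe sets higher and 1.19% lower. By the brightest probe set, 1 of 10 members was called, beside 4.56% of all genes. The paired fit called 6 of the 29, beside 6.28% of all probe sets, and 4 of these 6 belong to Klf9. They were 2 higher and 4 lower, beside 3.47% and 2.81% of all probe sets. By gene it called 3 of 10 members, beside 8.25% of all genes. The paired fit's count over the whole array rested on single pairs: 2827 probe sets were called with all pairs, 822 without pair 1, 769 without pair 3, 2526 without pair 2 and 1994 without pair 4. The groups did not overlap for 6 of the 29 probe sets, beside 9.85% of all. Of these 6, 4 were higher and 2 lower, beside 5.8% and 4.05% of all. The median difference of the 29 was -0.0055 log2 units, with 14 above and 15 below 0, and that of all probe sets was 0.0021.

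**Figure D1:**
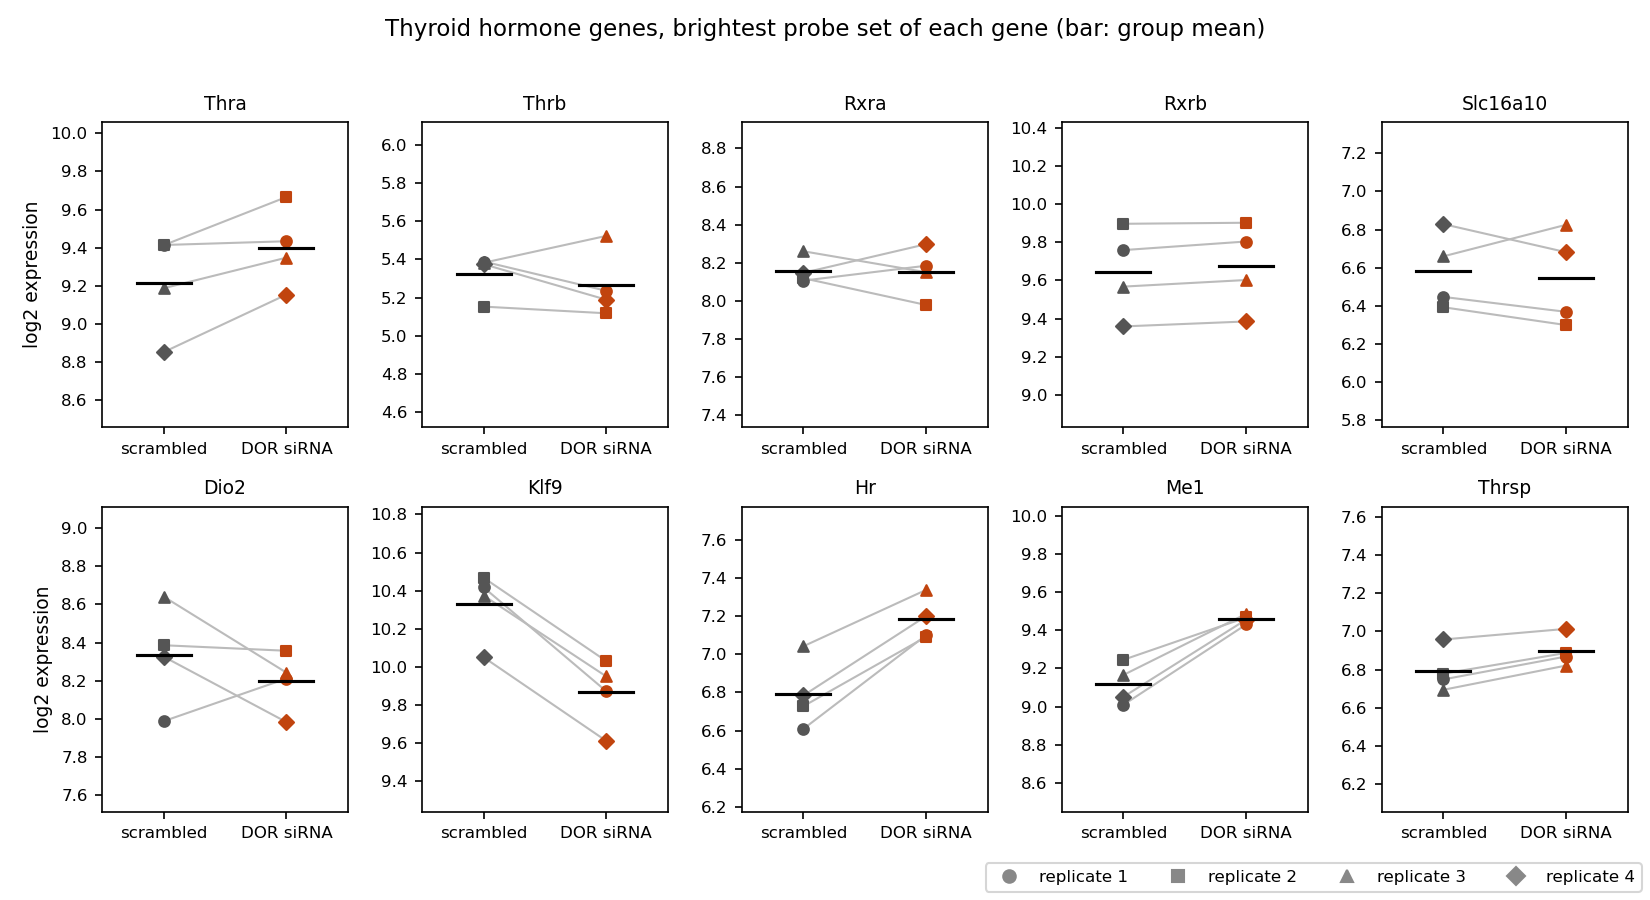
Log2 expression (y axis, a span of the same size in each panel) of the brightest probe set of each of the 10 genes, for scrambled (grey) and DOR siRNA (orange) cultures; lines join cultures of the same replicate number and bars are group means of 4 arrays. All 4 lines fall for Klf9 and rise for Hr and Me1, and the Rxrb lines are nearly level.

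Thra, which encodes the alpha receptor, had 3 probe sets with positive differences that were smaller than the spread between cultures. The brightest, 1454675_at, read 9.41, 9.41, 9.19 and 8.85 in scrambled cultures 1 to 4 and 9.43, 9.67, 9.35 and 9.15 in the DOR siRNA cultures. The groups overlapped, but each knockdown culture read at or above its same-numbered control, by 0.020 to 0.30. The mean difference was 0.18 ± 0.14, with a 95% interval from -0.13 to 0.49 (limma adjusted p = 0.625). The other two probe sets differed by 0.16 and 0.19 (limma adjusted p = 0.608 and 0.621). In RefSeq the gene overlaps Nr1d1, a clock repressor named here for that overlap, and the sources used here do not say whether the amplified product kept its strand. Nr1d1 differed by -0.22 ± 0.10 (limma adjusted p = 0.308), and neither gene was called. Whether signal of Nr1d1 enters the Thra probe sets was not tested.

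Thrb, the beta receptor, was dim. Its probe set read 5.39, 5.15, 5.38 and 5.38 in the scrambled cultures and 5.24, 5.12, 5.52 and 5.19 in the knockdown. All of these lie under 6.18, the median over every probe set tested, and the values do not show the transcript to be above background. The groups overlapped, and the difference was -0.058 ± 0.10 (interval -0.28 to 0.16, limma adjusted p = 0.873).

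Rxrb, a retinoid X receptor that pairs with the thyroid receptor, followed the replicate number and not the treatment. It read 9.76, 9.90, 9.57 and 9.36 in scrambled cultures 1 to 4 and 9.80, 9.90, 9.60 and 9.38 in DOR siRNA cultures 1 to 4. Same-numbered cultures differed by at most 0.045, while the pair means spanned 0.53. The mean difference was 0.028, with an interval of -0.27 to 0.33 in the group fit and of -0.13 to 0.19 in the paired fit (limma adjusted p = 0.962 and 0.893). Rxra, the alpha form of the same partner, had 3 probe sets that differed by -0.0055, 0.20 and 0.093 (limma adjusted p from 0.534 to 0.989). Its brightest, 1425762_a_at, ranged from 8.11 to 8.26 in the scrambled cultures and from 7.98 to 8.30 in the knockdown, so the groups overlapped. For that probe set the interval of -0.19 to 0.18 leaves out changes larger than 0.19 log2 units. The bound does not hold for 1454773_at, which was higher in 4 of 4 pairs. Its interval was -0.080 to 0.48 in the group fit and 0.0066 to 0.39 in the paired fit. It was called in neither (limma adjusted p = 0.534 and 0.242).

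Slc16a10 encodes a transporter of aromatic amino acids and thyroid hormones, and its 4 probe sets differed by between -0.20 and 0.056. The brightest, 1436368_at, read 6.45, 6.39, 6.66 and 6.83 in the scrambled cultures and 6.37, 6.30, 6.83 and 6.68 in the knockdown. The groups overlapped almost wholly (difference -0.038 ± 0.13, interval -0.33 to 0.26, limma adjusted p = 0.947). The next, 1434592_at, was lower in 4 of 4 pairs (-0.20 ± 0.11, limma adjusted p = 0.424), and it and the other two had means under 6.18.

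Dio2, the deiodinase that makes triiodothyronine inside muscle cells, had negative differences in 3 of 3 probe sets and no call. The brightest, 1418937_at, read 7.99, 8.39, 8.64 and 8.33 in the scrambled cultures and 8.21, 8.36, 8.24 and 7.98 in the knockdown. The groups overlapped, and pair 1 went up while pairs 2, 3 and 4 went down, as they did in the other two probe sets. The differences were -0.14 ± 0.13, -0.29 ± 0.14 and -0.16 ± 0.14 (limma adjusted p = 0.721, 0.351 and 0.698). The interval of 1426081_a_at, the probe set with the largest of them, ran from -0.58 to 0.012.

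Klf9, a zinc finger transcription factor and a direct target of the hormone receptor in brain and other tissues, had the largest negative differences of the members. Its brightest probe set, 1428288_at, read 10.42, 10.47, 10.37 and 10.05 in scrambled cultures 1 to 4 and 9.87, 10.03, 9.95 and 9.61 in DOR siRNA cultures 1 to 4. Every knockdown value lay below every scrambled value, by a narrow margin between scrambled 4 and DOR siRNA 2, and replicate 4 was the lowest of both groups. The means were 10.33 ± 0.19 and 9.87 ± 0.18 (SD, n = 4 each), and the difference was -0.46 ± 0.12 log2 units, a change of -27.4% in signal, with limma adjusted p = 0.0578 in the group fit. The 4 pairs fell by 0.55, 0.44, 0.42 and 0.44, and the paired fit gave -0.46 ± 0.072 with limma adjusted p = 0.00856.

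All 7 probe sets of Klf9 had negative differences, from -0.58 to -0.12, and 6 of the 7 were lower in 4 of 4 pairs. The paired fit called 1428288_at, 1428289_at (-0.49), 1456341_a_at (-0.58) and 1422264_s_at (-0.55), with limma adjusted p from 0.007 to 0.00856. Those same 4 had limma adjusted p from 0.0578 to 0.273 in the group fit. For 1422264_s_at the pair means spanned 1.00 log2 units while the pair differences lay between -0.73 and -0.41. The remaining 3 differed by -0.27, -0.22 and -0.12 and were not called in either fit. Of the 7 probe sets, 3 had means under 6.18, and a log2 difference can be compressed in dim probe sets. Among these 3 was 1422264_s_at, whose difference of -0.55 was not smaller in size than that of the brightest (-0.46). The probe sets report 1 gene and are not independent, and 3 of them share 1 accession in the platform annotation. The suffix of 1422264_s_at marks probes that can also match transcripts of other genes.

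**Figure D2:**
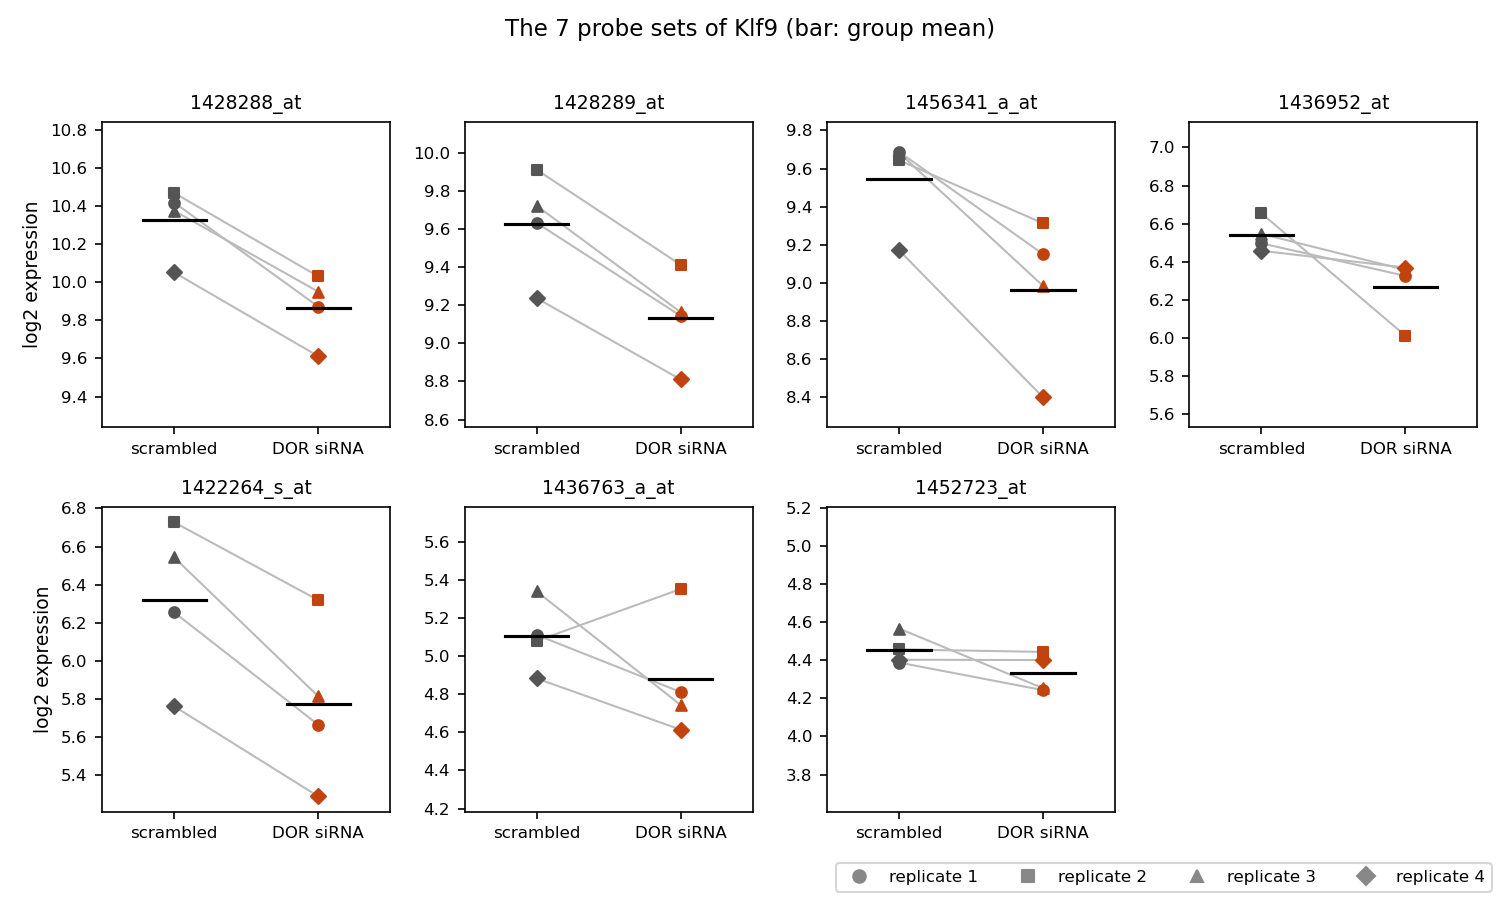
Log2 expression (y axis, equal spans) of the 7 Klf9 probe sets, from the brightest to the dimmest, in scrambled (grey) and DOR siRNA (orange) cultures, with same-numbered cultures joined and group means as bars. The lines of the 4 probe sets called in the paired fit all fall, with replicate 4 the lowest in both groups.

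How far the Klf9 difference rests on single cultures was read from fits that left them out. In the group fit the difference of the brightest probe set lay between -0.55 and -0.38 and was called without scrambled 4 (limma adjusted p = 0.0159) and without DOR siRNA 2 (0.0479), and not without any of the other 6 cultures. In the paired fit without 1 pair it lay between -0.47 and -0.43 and was called without pair 2 (limma adjusted p = 0.0133) or 4 (0.032), but not without pair 1 (0.0604) or 3 (0.0504), an alternative added after the data were seen. The direction was negative in each of these fits. With the mean of the poly-A control probe sets, a measure of the amplification, as a covariate the group fit gave -0.44 ± 0.13 (limma adjusted p = 0.139).

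Hr, a nuclear corepressor of the thyroid hormone receptor whose gene is itself hormone-induced in brain, was higher. Its brighter probe set, 1435950_at, read 6.61, 6.73, 7.04 and 6.78 in the scrambled cultures and 7.10, 7.09, 7.34 and 7.20 in the knockdown. The groups did not overlap, although the lowest knockdown value exceeded scrambled 3 by little. The difference was 0.39 ± 0.10 (31.2% more signal), with limma adjusted p = 0.0655 in the group fit and 0.0176 in the paired fit, where the pairs rose by 0.49, 0.36, 0.30 and 0.42. In the group fit it was called without scrambled 3 (limma adjusted p = 0.0437) and not without any other culture, and in the paired fit it was called without pair 2 (0.0258) and not without pair 1, 3 or 4 (0.0635 to 0.104). The poly-A covariate gave 0.31 ± 0.09 (limma adjusted p = 0.128). The dimmer probe set, 1422110_at, was higher in 4 of 4 pairs but differed by 0.17 ± 0.09 (limma adjusted p = 0.43 and 0.272 in the group and paired fits).

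Me1, the cytosolic malic enzyme that supplies NADPH for fatty acid synthesis and a classic hormone target of liver, rose by 1 of its 2 probe sets and was higher in 4 of 4 pairs by both. The brighter, 1430307_a_at, read 9.01, 9.25, 9.17 and 9.05 in the scrambled cultures and 9.43, 9.47, 9.49 and 9.46 in the knockdown. The groups did not overlap, and the knockdown cultures lay within 0.056 of each other (SD 0.023, against 0.11 in the scrambled group, n = 4 each). The difference was 0.34 ± 0.08, 26.8% more signal (limma adjusted p = 0.0363, and 0.0309 in the paired fit). The dimmer probe set, 1416632_at, read 8.46, 8.54, 8.44 and 8.29 in the scrambled cultures and 8.70, 8.99, 8.64 and 8.65 in the knockdown. It did not overlap either, with a difference of 0.31 ± 0.10 that did not pass (limma adjusted p = 0.121, and 0.0506 in the paired fit). The mean of both probe sets differed by 0.33 ± 0.07 (limma adjusted p = 0.0259 over all genes).

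The call of Me1 was close to the threshold. Its size stayed between 0.31 and 0.38 whichever culture was left out, but the call was kept only without scrambled 2 (limma adjusted p = 0.0422), and without any of the other 7 cultures the adjusted p lay between 0.054 and 0.116. In the paired fit the call was kept without pair 2 (limma adjusted p = 0.0262) and lost without pair 1, 3 or 4 (0.109 to 0.154). With the poly-A covariate the difference was 0.32 ± 0.08 and was not called (limma adjusted p = 0.093). The poly-A mean ranged from 7.90 to 8.72 in the scrambled arrays and from 7.95 to 8.50 in the knockdown arrays.

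The genes whose brightest probe sets most resembled that of Me1 over the 8 arrays, out of 18183 and by the root mean square distance after centring each on its mean, were Cdca4 (0.050 log2 units), Rab3b (0.058), a GTPase of secretory vesicles, and Noxo1 (0.062), a subunit of an NADPH oxidase. The Me1 profile itself had a root mean square of 0.18 around its mean. The distance includes the difference between the groups, so the genes nearest to Me1 had to differ by about as much. Their values are a description and no separate evidence. Cdca4 differed by 0.30 ± 0.07 (limma adjusted p = 0.037), and Rab3b and Noxo1 by 0.30 ± 0.08 and 0.29 ± 0.07 (0.0817 and 0.052). Cdca4 kept its call without scrambled 4 or DOR siRNA 2 and lost it without any of the other 6 cultures (limma adjusted p from 0.0601 to 0.119), with the variance trend (0.0526) and with the poly-A covariate (0.0852).

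Thrsp, a nuclear protein that promotes fat synthesis in liver and adipose tissue, did not follow Me1 past the threshold. Its brightest probe set, 1444166_at, read 6.75, 6.78, 6.69 and 6.96 in the scrambled cultures and 6.87, 6.89, 6.82 and 7.01 in the knockdown. It was higher in 4 of 4 pairs, by 0.056 to 0.13, within overlapping groups (0.10 ± 0.08, interval -0.078 to 0.28, limma adjusted p = 0.643). The probe set 1424737_at did not overlap between the groups, with values of 3.77 to 4.03 against 4.06 to 4.17, but it was among the dimmest of the members and did not pass (0.17 ± 0.08, limma adjusted p = 0.345). The third probe set differed by 0.019.

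**Figure D3:**
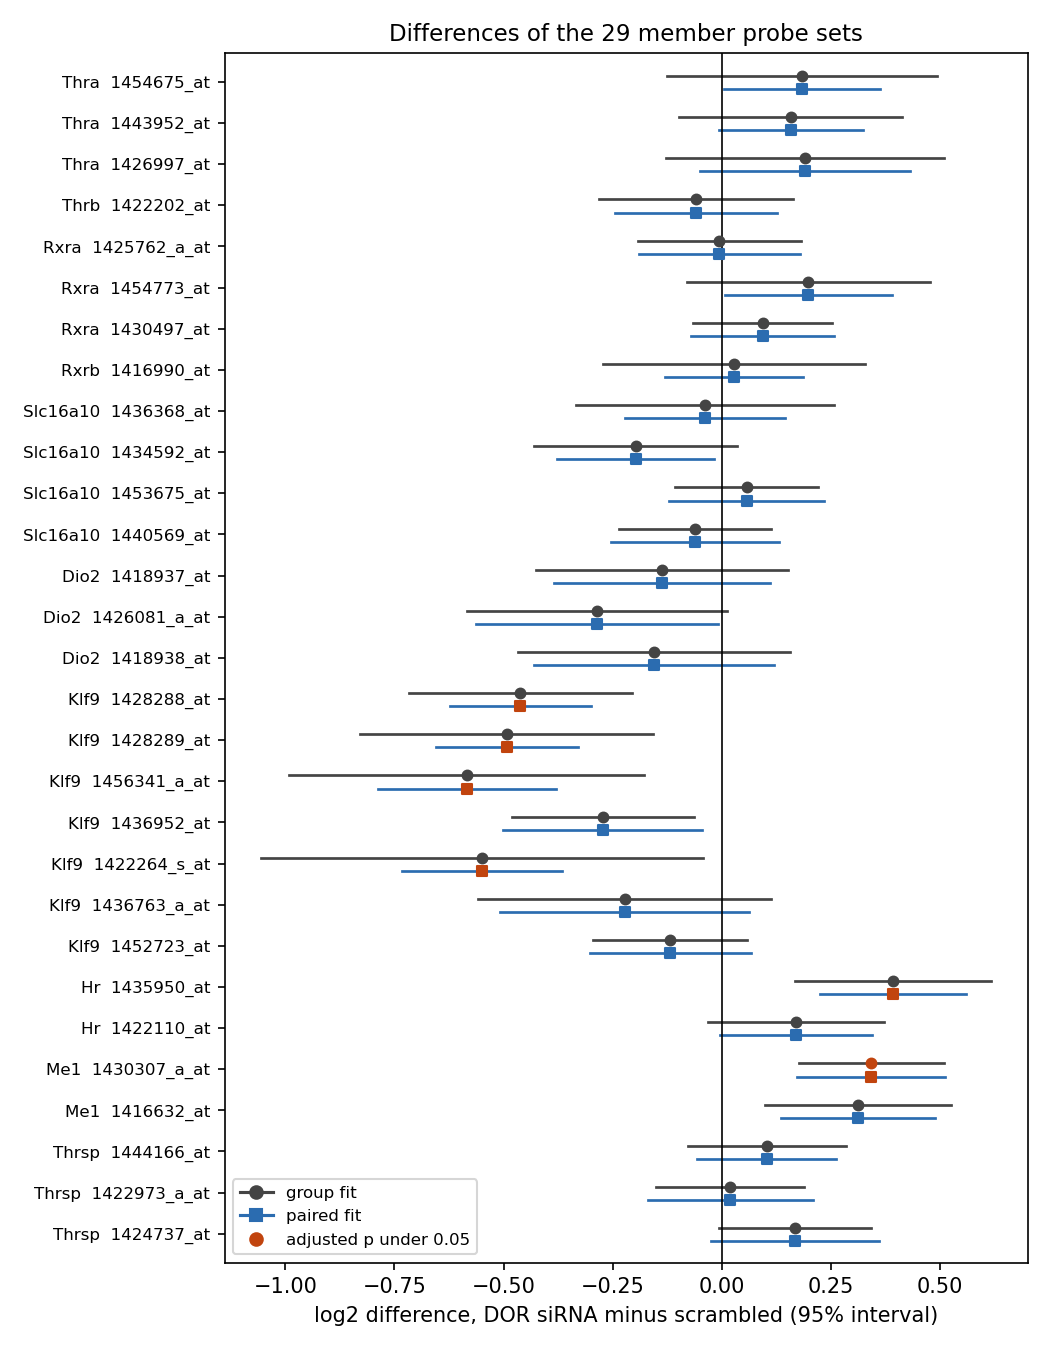
Log2 difference, DOR siRNA minus scrambled (x axis), of each of the 29 probe sets with its 95% interval from limma in the group fit (grey circles) and the paired fit (blue squares); orange marks an adjusted p under 0.05. The Klf9 estimates lie left of 0, those of Hr and Me1 right of it, and the group fit has 1 orange mark, at Me1 1430307_a_at.

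Other genes of thyroid hormone action were read from a list grouped by role, of which 31 of 38 genes were measured by a probe set of that symbol alone. By the brightest probe set 1 rose, 1 fell and 29 were not called by limma, beside 3.11% of all genes that rose and 1.45% that fell. The median difference was -0.11, against 0.015 over all genes. The paired fit called 2 higher and 4 lower, beside 5.1% and 3.16% of all genes. Without scrambled 4 the group fit called 3 higher and 3 lower, and without scrambled 1 it called 1 higher and 2 lower.

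Those that passed were muscle and metabolic targets. Atp2a2, the slow-type calcium pump of the sarcoplasmic reticulum, fell by 0.55 ± 0.09 (limma adjusted p = 0.00893), and Cpt1a, which admits fatty acids to mitochondria, rose by 0.52 ± 0.09 (0.0107). Both kept their calls whichever culture was left out. The paired fit also called Fasn, the fatty acid synthase, higher (0.43, limma adjusted p = 0.0406), and Crym, a cytosolic hormone-binding protein (-0.69, 0.0233), the fast calcium pump Atp2a1 (-0.61, 0.00642) and the slow myosin Myh7 (-0.95, 0.0129) lower. The names of Fasn, Atp2a1 and Myh7 were chosen after their values were seen. Crym had the smallest p of the 4 measured transport and binding genes in the group fit (-0.69 ± 0.21, limma adjusted p = 0.11), with means of 6.03 and 5.35, both under 6.18, and it was called without scrambled 1 (-0.92, 0.0122). None of the 9 measured coregulators passed in either fit, and the smallest p was that of Tbl1x, a part of the corepressor complex (0.32 ± 0.10, limma adjusted p = 0.105). Dio1, the deiodinase of liver and kidney (-0.13, limma adjusted p = 0.648), and Rxrg, the muscle-enriched retinoid partner (0.054, 0.855), were dim and not called.

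**Figure D4:**
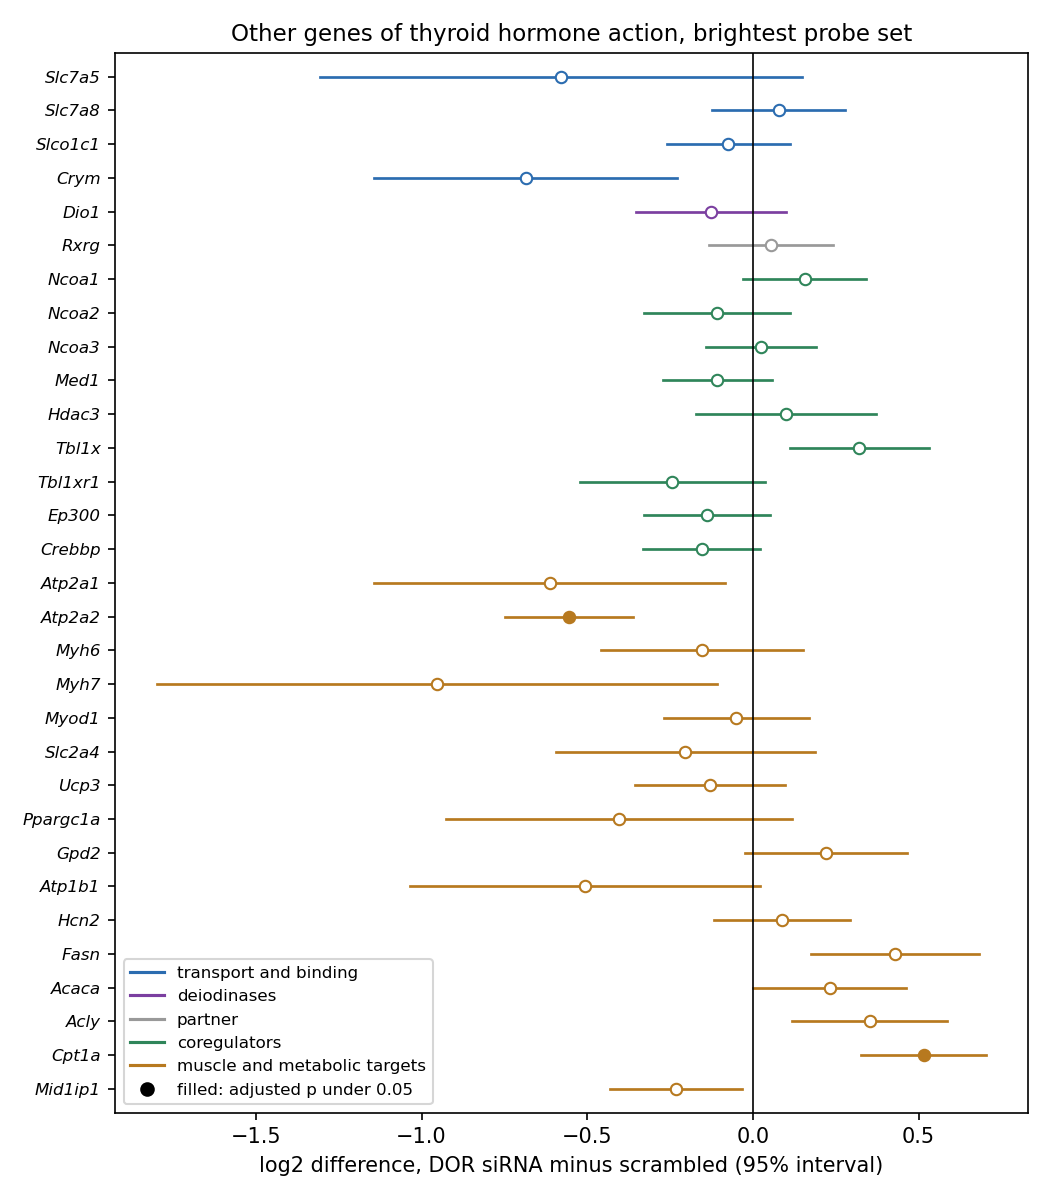
Log2 difference, DOR siRNA minus scrambled (x axis), with 95% limma intervals in the group fit, for the 31 other genes of thyroid hormone action, coloured by role. The 2 filled points are Atp2a2, at -0.55, and Cpt1a, at 0.52.

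Markers of muscle differentiation and of proliferation moved with the knockdown beside these genes. Of 9 markers of differentiation 2 fell, Myh3 (-0.42) and Tnnt3 (-0.70), and all 9 differences were negative. Their mean level was 13.59 to 13.81 log2 units in the scrambled arrays and 13.17 to 13.49 in the knockdown arrays, so the cultures read as differentiating muscle in both groups. All 4 measured markers of proliferation rose, with a mean level of 8.78 to 9.03 in the scrambled arrays against 9.42 to 9.63. Of 5 fibroblast markers 1 rose, Pdgfra (0.57). The mean level of all 5 was 7.13 to 7.31 in the scrambled arrays against 7.38 to 7.74, and Lum and Thy1 had means under 6.18. Thy1 (-0.13) and Col1a1 (0.036) were not called in either fit. The paired fit called 3 differentiation markers lower, 4 proliferation markers higher and 3 fibroblast markers higher. Calls it added were Ckm (-0.65, limma adjusted p = 0.00632, against 0.177 in the group fit), Dcn (0.56, 0.00762 against 0.0767) and Lum (0.52, 0.0246 against 0.112). Of all genes the paired fit called 3.16% lower and 5.1% higher, and the group fit 1.45% and 3.11%. The part of these markers in the differences of Klf9, Hr, Me1 and the calcium pumps was not tested. None of the 4 measured adipocyte markers passed the limma test in either fit. Their mean level was 5.98 to 6.17 and 5.87 to 6.29, and the defining genes Adipoq and Fabp4 lay under the median in both groups.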

How the data were processed

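The authors deposited log2 expression values per probe set, made with RMA per the submitters' processing notes. No version or option of RMA is stated in the labels. RMA makes the arrays' distributions alike, so a shift of all transcripts in 1 direction would not be seen. Array medians were 6.14 to 6.20, and correlations between arrays were 0.988 to 0.997. Precision is limited by the number of arrays.

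Affymetrix controls (64 probe sets) were left out of the tests, and 45037 were tested. Names came from the platform annotation, with gene identifiers matched to RefSeq for 10 of 10 members. The 932 probe sets with several symbols and the 9160 with none were tested but not named. The test was limma 3.58.1 (R 4.3.3), by group alone, with Benjamini-Hochberg adjustment over all probe sets and calls at 0.05. Errors with differences are standard errors and intervals are 95% intervals of the model, unadjusted for multiple tests.

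Same-numbered cultures share a letter in their descriptions, and the correlations of their deviations from the group means were 0.142 to 0.468. Each was above 0.1, and the numbers were treated as pairs in a second fit, although the design text states no pairing. Differently numbered cultures correlated between -0.394 and 0.265, and some exceeded same-numbered ones: scrambled 2 with DOR siRNA 1 (0.265, own numbers 0.192 and 0.149) and scrambled 1 with DOR siRNA 2 (0.183). A second fit with that number as a block is called the paired fit. Other alternatives were leaving out each array, a variance trend with a robust prior, cyclic loess, leaving out dim probe sets, a poly-A covariate and averaging all probe sets of a gene.

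The members, lists and alternatives were chosen with earlier results of these data known. All probe sets of the members are described, and other genes are named if called, or as the smallest p of their role where none was called. For a called member the 3 nearest genes by profile are named. The fit was tested on simulated data. Figures were drawn with matplotlib 3.10.9.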

Additional observations from a re-analysis of the deposited data

Results flagged for a closer look

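In 7 of 78 groups of 4 arrays examined, 1 array stood apart, its gap to the nearest array, as a share of the group's range, being above Dixon's critical value. Chance alone gives about 5% of groups. These were scrambled 2 as the lowest for Thrb 1422202_at (ratio 0.940, 5.15 against 5.38), DOR siRNA 2 as the lowest for Rxra 1430497_at (0.862, 4.61 against 4.69) and scrambled 2 as the highest for Slc16a10 1453675_at (0.902, 4.55 against 4.47). For Klf9, scrambled 4 was the lowest for 1456341_a_at (0.915, 9.17 against 9.64), and DOR siRNA 2 the lowest for 1436952_at (0.878, 6.01 against 6.33). DOR siRNA 2 was the highest for Me1 1416632_at (0.839, 8.99 against 8.70) and for Tbl1x 1455042_at (0.910, 10.53 against 10.23).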

How the results depend on the processing

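The number of arrays, 4 in each group, limits these results, and dim probe sets can have compressed differences. The replicate block raised the called probe sets from 917 higher and 535 lower to 1562 and 1265. Among the members it raised the calls to 2 higher and 4 lower (by gene 2 and 1), and among the other thyroid hormone genes to 2 and 4. The calls it changed, as given, were those of Klf9, Hr, Crym, Fasn, Atp2a1, Myh7 and the markers Ckm, Dcn and Lum. The block changed no other call of a member or other gene named here. Leaving out 1 array gave 377 to 1299 probe sets higher and 197 to 1011 lower, 0 to 1 member probe sets higher and 0 to 3 lower, 0 to 1 member genes higher and 0 to 1 lower, and 1 to 3 of the other genes in either direction. The member called lower was Klf9 throughout. The poly-A covariate gave 529 higher and 269 lower probe sets and 0 member calls, 0 higher and 0 lower. Cyclic loess called 1 Klf9 probe set lower (-0.47, limma adjusted p = 0.0434), so 1 member gene was lower. Leaving out dim probe sets called 2 member probe sets higher and 1 lower, and the same numbers of genes. In that fit of fewer probe sets Hr and Klf9 had limma adjusted p = 0.0483 and 0.0441. Signs turned only for differences near 0 that were never called. For Rxra 1425762_a_at the difference ran from -0.054 to 0.053 without 1 array, for Rxrb from -0.068 to 0.12, for Slc16a10 1436368_at from -0.13 to 0.044 and for Thrsp 1422973_a_at from -0.014 to 0.055. With the poly-A covariate Thrsp 1422973_a_at was -0.0088, and the mean over probe sets gave 0.095 for Rxra. The variance trend with a robust prior ended no member call. The causes were not tested.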
